A study of Macaca mulatta with 10 samples.

Results

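The SR proteins and the heterogeneous nuclear ribonucleoproteins (hnRNPs) were described in flow-sorted Tr1 cells of 10 rhesus macaques that had received islet allografts. Every gene of the count table whose symbol is SRSF followed by a number, or begins with HNRNP, was taken, which gave 43 of the 26484 genes listed, 12 of them SRSF and 31 HNRNP. Of these, 32 code for established SR or hnRNP proteins, and 11 are pseudogenes, near-identical gene copies, a read-through gene or an antisense RNA. Tr1 cells are regulatory CD4 T cells known for secreting interleukin 10, and here they were sorted as CD4+ cells positive for both CD49b and LAG-3. All monkeys had been made diabetic with streptozotocin and were given an islet allograft matched with the donor for 1 DRB allele, under transient immunosuppression with an antagonistic CD40 antibody, rapamycin and blockers of interleukin 6 and tumor necrosis factor signaling. Cohort B (n = 5, monkeys 13EP12, 13EP8, 14HP26, 14HP31 and 15CP6) received no further cells, and Cohort C (n = 5, monkeys 13EP5, 14HP33, 14HP24, 15CP1 and 15CP4) also received infusions of apoptotic donor leukocytes (ADLs). Each monkey gave 1 library. Per the labels, blood cells were taken at sacrifice, on a day set by rejection in Cohort B and planned in advance in Cohort C, so that the effect of ADLs and that of rejection cannot be told apart. For monkey 15CP1 and for 13EP12 and 13EP8 of Cohort B, the study's text and tables differ from this account of the day. They were kept in all comparisons of 10 libraries.

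SR proteins carry an RNA recognition motif and a tail rich in arginine and serine, and mostly bind exons to help the spliceosome recognize nearby splice sites. Kinases phosphorylate the tail, which controls where the protein sits in the nucleus. HnRNPs coat nascent transcripts, often counter SR proteins by silencing exons, and also act in mRNA export, stability and translation. In T cells the best known target is the phosphatase CD45, whose alternative exons are skipped on activation under HNRNPL and HNRNPLL.

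Depth varied widely, from 6076 to 1392157 total counts in Cohort B and from 66485 to 5895609 in Cohort C. The 4 libraries of over 1000000 counts were 13EP12 and 13EP8 of Cohort B and 13EP5 and 15CP1 of Cohort C. Both of Cohort C were deeper than both of Cohort B. The remaining 6 libraries stood apart. Between 15.6 and 87.0% of their counts fell on the MTRNR2L family, copies of a mitochondrial RNA sequence, against 3.09 to 3.90% in the 4 deep libraries. Of 8 genes that nearly every cell uses, such as ACTB and GAPDH, 1 to 5 had no count in each of these 6 libraries, and at most 1 had none in each deep library. The markers of the sort were detected mainly in the deep libraries. CD4 had 338 counts in 13EP12, 94 in 13EP8, 772 in 13EP5 and 766 in 15CP1. Of the shallow libraries, 15CP6 had 13 CD4 counts, 14HP24 had 19 and the rest none. ITGA2, which codes for CD49b, had 25 counts in 13EP12, 2 in 13EP8, 4 in 13EP5 and 37 in 15CP1. LAG3 had 10, 0, 16 and 12 counts in these 4 libraries. IL10, which was not used in the sort, had 0, 0, 11 and 25. ITGA2, LAG3 and IL10 had no count in the other 6 libraries. Of 9 T cell genes in the table, all 9 were detected in each deep library and 0 to 5 in each of the others. Monocyte genes, which the sort should not hold, summed to 304, 466, 295 and 2030 counts in the 4 deep libraries and to 0 to 48 in the others. Erythroid genes had 188 counts in 15CP6, 93 in 14HP33, 6 in 14HP26 and none elsewhere, and platelet genes had 487 in 13EP5, 26, 2 and 13 in 13EP12, 13EP8 and 15CP1, and none in the shallow libraries. Genes of CD8 T and NK cells summed to 93 to 412 counts in the deep libraries and 0 to 68 in the others, and B cell genes to 64 to 376 and 0 to 12. All these marker sums are raw counts, not scaled to the total of each library. They do not show whether deep or shallow libraries held the larger share of other cells. The part of depth, MTRNR2L counts and other cells in the results below was not tested beyond the values given beside them.

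SR and hnRNP genes were nearly all detected in the deep libraries and sparsely in the shallow ones of both cohorts. At least 1 count was found for 34, 36, 16, 5 and 28 of the 43 genes in the Cohort B monkeys, in the order given above, and for 37, 14, 25, 39 and 5 in the Cohort C monkeys. The ranges of the cohorts overlapped across nearly their whole length. The same libraries that held few splicing factors held few genes altogether, 1.76 to 18.3% of all genes in the 6 shallow libraries against 33.6 to 56.9% in the 4 deep ones. Monkey 14HP33 was the exception to the order by total counts. It had 968423 counts and only 14 of the 43 genes, and MTRNR2L genes took 87.0% of its counts. With more than 3 counts as the threshold, the number of genes detected fell to 1 in monkey 14HP31 and to 11 in 14HP33, and was at least 34 in each deep library.

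**Figure D1:**
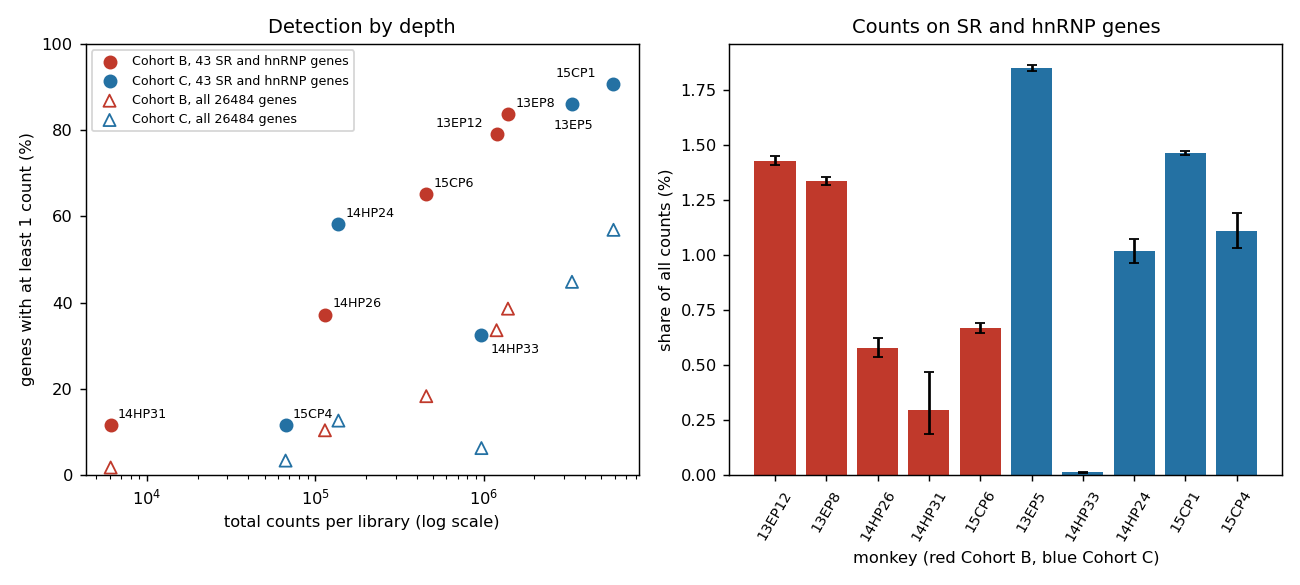
The left panel plots the percentage of genes with at least 1 count against the total counts per library on a log scale, as filled circles for the 43 SR and hnRNP genes and open triangles for all 26484 genes, and the right panel plots the percentage of each library's counts on the 43 genes with 95% Wilson intervals. Red is Cohort B and blue Cohort C. Detection was highest in 15CP1 with 39 genes and lowest in 14HP31 and 15CP4 with 5 each, and the share of counts ran from 0.0119% in 14HP33 to 1.85% in 13EP5.

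The SR and hnRNP genes took 1.43% (95% Wilson interval 1.41 to 1.45%, counting error only) and 1.34% (1.32 to 1.36%) of all counts in the deep libraries of Cohort B, and 1.85% (1.84 to 1.87%) and 1.47% (1.46 to 1.48%) in those of Cohort C, 13EP5 and 15CP1. In the other Cohort B libraries the share was 0.580% in 14HP26, 0.296% in 14HP31 and 0.668% in 15CP6. In the other Cohort C libraries it was 0.0119% in 14HP33, 1.02% in 14HP24 and 1.11% in 15CP4. The shares of the 2 cohorts overlapped. With the MTRNR2L genes taken out of the total, the share was 0.0911% in 14HP33, still the lowest, and 1.96% in 15CP4, then the highest. SRSF genes made up 28.5 to 30.9% of the counts on the 43 genes in the 4 deep libraries, a narrow range, and 22.2 to 43.7% in the others.

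In 3 of the 6 shallow libraries a few genes held most of these counts. In monkey 15CP4, SRSF6 had 323, HNRNPH1 221 and HNRNPH3 143 of 739 counts, 93.0% together, and the other 2 genes detected were HNRNPUL1 and HNRNPDL. In monkey 14HP31, 12 of 18 counts fell on HNRNPF. In monkey 14HP26, SRSF1 alone took 230 of 660 counts (34.8%), and HNRNPA2B1, the first gene by counts in all 4 deep libraries, had 1. The 3 leading genes held 36.3% of the counts in 15CP6, 43.5% in 14HP33 and 44.7% in 14HP24, and 25.9 to 33.1% in each deep library. Missing genes were tallied against the floor of each library, taken as 3 counts of its total, MTRNR2L counts included. Of the genes whose lowest level in the deep libraries lay above that floor, 12 of 28 had no count in 14HP26, 5 of 7 in 14HP31, 5 of 31 in 15CP6, 19 of 31 in 14HP33, 5 of 30 in 14HP24 and 23 of 28 in 15CP4. The same tally over all genes gave 72.7, 68.2, 43.1, 82.1, 44.4 and 80.2% missing. For SR and hnRNP genes the percentages were 42.9, 71.4, 16.1, 61.3, 16.7 and 82.1. They were lower than those of all genes in 4 of the 6 libraries and slightly higher in 14HP31 and 15CP4. The tally was not matched for level. Among genes with a count in all 4 deep libraries, 27 of 32 SR and hnRNP genes had a mean of at least 100 CPM. Over all genes it was 1987 of 6877. Whether the percentages differ between genes of like level was not tested.

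**Figure D2:**
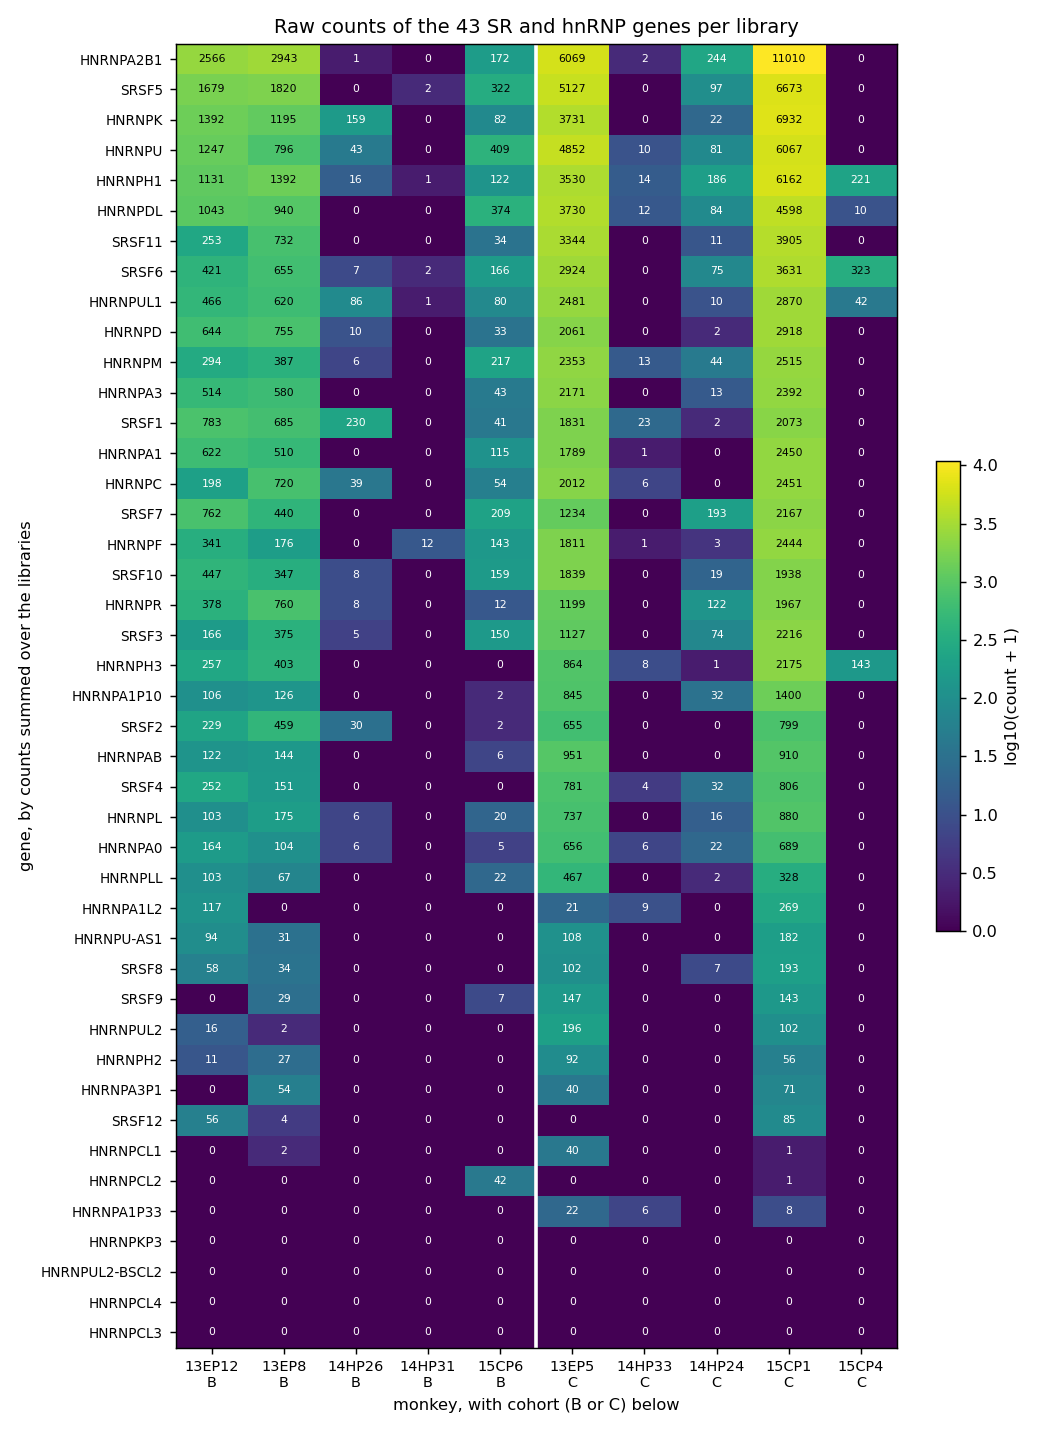
Raw counts of each of the 43 genes (rows, ordered by summed counts) in each library (columns, with the cohort below the monkey), coloured by log10(count + 1) and printed in each cell. The 4 deep libraries are filled in nearly every row down to HNRNPLL, while 14HP31 and 15CP4 have counts in 5 rows each, and HNRNPH1 alone has a count in all 10 libraries.

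HNRNPH1 was the only gene of the 43 with a count in all 10 libraries, SRSF6 and HNRNPUL1 were seen in 9, and 19 genes in 7 or more. No count in any library was found for HNRNPKP3, HNRNPCL3, HNRNPCL4 and HNRNPUL2-BSCL2. In the deposited FPKM table, values per gene length made by another program, the read-through gene HNRNPUL2-BSCL2 was listed at 38.7, 47.3, 17.9, 147 and 29.0 in 13EP12, 13EP8, 14HP26, 13EP5 and 15CP1, and HNRNPCL4 at 8.37 in 13EP5 and 7.51 in 15CP1. The 2 tables thus differ on whether these genes were detected.

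Levels of different genes were compared per length, by FPKM, within the 4 deep libraries. SRSF5 had the highest FPKM of the 43 genes in each of them, with 20.2 and 17.4% of the summed FPKM of the 43 genes in the Cohort B pair 13EP12 and 13EP8, and 16.8 and 14.6% in the Cohort C pair 13EP5 and 15CP1. HNRNPA2B1 was next in all 4 libraries, with 14.3, 12.6, 7.95 and 10.1%. HNRNPH1 ranked 3 or 4 throughout, with 5.79, 6.24, 6.36 and 6.32%. HNRNPK had 6.35, 5.96, 5.25 and 8.0%, and HNRNPD, which binds AU-rich elements and promotes mRNA decay, had 5.79, 5.90, 4.26 and 4.79%. HNRNPU, one of the leading genes by summed counts, ranked only 10 to 20 by FPKM. Orders below the leading pair changed between libraries, as for SRSF11, which ranked 19, 8, 4 and 6. FPKM values of single genes were not compared between libraries here, because their scale differed. Those of 13EP5 summed to 58223 over the 43 genes against 5026 to 6155 in the other deep libraries, although its CPM (counts scaled to library size) were alike.

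**Figure D3:**
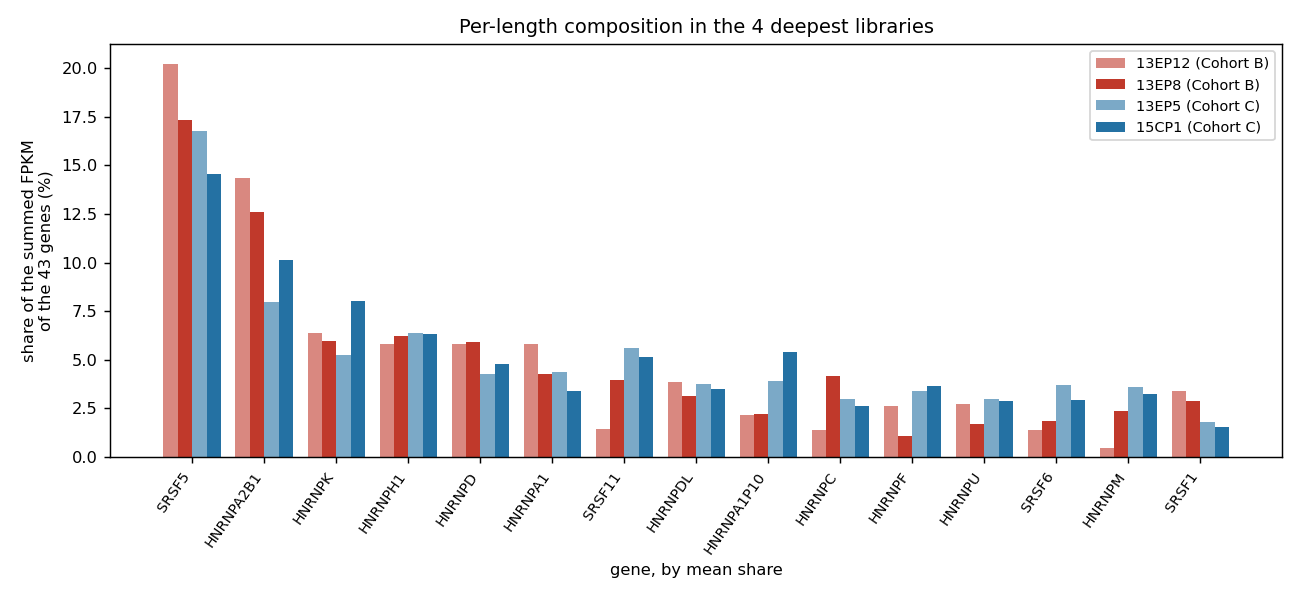
Share of the summed FPKM of the 43 genes (vertical axis, %) held by each of the 15 genes with the highest mean share, in the 4 deep libraries, with Cohort B in red and Cohort C in blue. SRSF5 is highest in each library, from 14.6 to 20.2%, followed by HNRNPA2B1 from 7.95 to 14.3%.

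To ask whether ADL infusions went with other levels of these genes, Cohort C was set against Cohort B in a quasi-likelihood fit with edgeR, in which 14168 genes of 10 or more counts in all entered. Of the 43 genes, 39 were tested. The study's filter, an unadjusted p below 0.01 and a change of 1.5-fold or more, was passed by 1 of them, against a background of 6.43% of all genes tested. That gene was the pseudogene HNRNPA1P33, described below. No gene of the 39 had a Benjamini-Hochberg adjusted p under 0.05, nor did any gene of the table (0%), and the smallest adjusted p was 0.141. At an unadjusted p under 0.05, 2 of the 39 passed, HNRNPA1P33 and HNRNPCL2, against 20.6% of all genes, and 2 genes of the whole table had an adjusted p under 0.05 in DESeq2, neither of them among the 39. The fold change was above 0 (higher in Cohort C) for 28 of the 39 and below 0 for 11, against 53.5% above 0 over all genes. The median log2 fold change was 0.34 for the 39 and 0.16 for all genes. That background moved with the scaling, to -0.11 with library size only and 0.34 with DESeq2 size factors, and the number of the 39 above 0 was then 24 and 33. On the difference of mean log2(CPM + 1), 20 of the 39 were higher in Cohort C and 19 lower, against 56.3% higher over all genes. The split in edgeR also rested on single libraries. Without 13EP5, 16 genes were above 0 and 22 below it with a median of -0.23, and without 13EP12, 35 were above 0 and 4 below it. For none of the 39 did the 2 cohorts' libraries separate without overlap, as they did for 0.0141% of all genes. The lowest two-sided exact permutation p among them, on log2(CPM + 1), was 0.0952 for HNRNPH3 (n = 5 monkeys per cohort), where the design allows 0.00794. On log2(FPKM + 1), limma called 0 of 39 at an adjusted p under 0.05 with over 1.4-fold, against 0% of all genes, with 0 of 39 and 29 of all 10307 genes at an unadjusted p under 0.05. Limma took the FPKM as deposited, so the larger scale of 13EP5 in Cohort C entered the test. Above 0 there were 30 of the 39 and 7736 of the 10307 genes, with median log2 fold changes of 0.67 and 0.74. The standard errors of the 39 log2 fold changes in edgeR had a median of 1.91, and ran from 1.79 to 2.83.

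The canonical SR proteins were led by SRSF5. It had 1679, 1820, 0, 2 and 322 counts in the 5 Cohort B libraries and 5127, 0, 97, 6673 and 0 in the 5 Cohort C libraries, in the order of monkeys given above. Each cohort held libraries at 0 beside libraries of over 1000 counts, and the log2 fold change of Cohort C over Cohort B was -0.041 (standard error, SE, 1.82, with an edgeR adjusted p of 1.0). SRSF11 had 253, 732, 0, 0 and 34 counts in Cohort B and 3344, 0, 11, 3905 and 0 in Cohort C. Its log2 fold change was 1.15 (SE 1.91, edgeR adjusted p = 1.0). SRSF6 had 421, 655, 7, 2 and 166 counts in Cohort B and 2924, 0, 75, 3631 and 323 in Cohort C. Its 323 counts in the shallow library 15CP4 were the highest level of this gene in any library, 2018 CPM (here after edgeR's TMM scaling, which adjusts for libraries dominated by a few genes), against 365 to 912 CPM in the deep libraries. The log2 fold change of SRSF6 was 1.60 (SE 1.89, edgeR adjusted p = 0.921).

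SRSF1, the prototype of the family, which shuttles between nucleus and cytoplasm, had 783, 685, 230, 0 and 41 counts in Cohort B and 1831, 23, 2, 2073 and 0 in Cohort C. Its highest level was in the shallow Cohort B library 14HP26, at 1353 CPM, and its log2 fold change of -0.98 (SE 1.89) was the lowest among the genes given with values in every library. SRSF3, a small SR protein that also acts in mRNA export, had 166, 375, 5, 0 and 150 counts in Cohort B and 1127, 0, 74, 2216 and 0 in Cohort C, with a log2 fold change of 0.63 (SE 1.92). SRSF10, which turns into a splicing repressor when dephosphorylated, had 447, 347, 8, 0 and 159 counts in Cohort B and 1839, 0, 19, 1938 and 0 in Cohort C. The cohorts overlapped for all 3 genes, and the fold change of SRSF10 was 0.04 on the log2 scale (SE 1.91). Of the other SR genes, SRSF7, SRSF2, SRSF4, SRSF8, SRSF9 and SRSF12 had counts in 3 to 6 libraries, with log2 fold changes from -1.43 for SRSF12 to 0.93 for SRSF4. Over all 12 SRSF genes, 8 had a fold change above 0 and 4 below it.

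Among the hnRNP A/B proteins, HNRNPA2B1, which binds methylated adenosines and sorts microRNAs, had 2566, 2943, 1, 0 and 172 counts in Cohort B and 6069, 2, 244, 11010 and 0 in Cohort C. With TMM over all 10 libraries, the deep libraries had 2227 and 2250 CPM in Cohort B and 1892 and 2285 CPM in Cohort C, which overlapped. With TMM over the 4 deep libraries alone, both Cohort C values, 1732 and 1902 CPM, lay below those of Cohort B, 2135 and 2205 CPM. The log2 fold change of HNRNPA2B1 over all 10 was 0.20 (SE 1.79). HNRNPA1, the classical exon silencer, had 622, 510, 0, 0 and 115 counts in Cohort B and 1789, 1, 0, 2450 and 0 in Cohort C, with a log2 fold change of -0.14 (SE 1.91). HNRNPA3 had 514, 580, 0, 0 and 43 counts in Cohort B and 2171, 0, 13, 2392 and 0 in Cohort C, with a log2 fold change of 0.33 (SE 1.91). All 3 genes were at 2 counts or fewer in 14HP26, 14HP31, 14HP33 and 15CP4, while in 14HP24 HNRNPA2B1 was the first of the 43 genes by counts and HNRNPA1 was at 0. HNRNPA0 had 164, 104, 6, 0 and 5 counts in Cohort B and 656, 6, 22, 689 and 0 in Cohort C, with a log2 fold change of 1.02 (SE 2.01). HNRNPAB was seen in 5 libraries only.

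The hnRNP F/H proteins bind runs of guanine. HNRNPH1 had 1131, 1392, 16, 1 and 122 counts in Cohort B and 3530, 14, 186, 6162 and 221 in Cohort C. Apart from 199 CPM in 14HP33, the Cohort C libraries lay between 1074 and 1381 CPM, while Cohort B had 981 and 1064 CPM in its deep libraries and 39.6 to 270 CPM in the others. The log2 fold change was 1.03 (SE 1.84, edgeR adjusted p = 1.0). HNRNPH3 had 257, 403, 0, 0 and 0 counts in Cohort B and 864, 8, 1, 2175 and 143 in Cohort C. It was thus detected in 2 of 5 Cohort B and 5 of 5 Cohort C libraries, in 14HP24 by 1 count only. The log2 fold change of HNRNPH3 was 1.68 (SE 1.96, edgeR adjusted p = 0.914). In a fit of the 4 deep libraries alone it was 0.27 (SE 0.48), and the cohorts overlapped. HNRNPF had 341, 176, 0, 12 and 143 counts in Cohort B and 1811, 1, 3, 2444 and 0 in Cohort C, with a log2 fold change of -0.13 (SE 1.91). HNRNPH2 was seen in the 4 deep libraries only.

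HNRNPU, a large nuclear scaffold protein that binds both DNA and RNA, had 1247, 796, 43, 0 and 409 counts in Cohort B and 4852, 10, 81, 6067 and 0 in Cohort C, with a log2 fold change of 0.24 (SE 1.84). Its relative HNRNPUL1 had 466, 620, 86, 1 and 80 counts in Cohort B and 2481, 0, 10, 2870 and 42 in Cohort C, with a log2 fold change of 0.07 (SE 1.88). HNRNPK, which binds cytosine-rich RNA, had 1392, 1195, 159, 0 and 82 counts in Cohort B and 3731, 0, 22, 6932 and 0 in Cohort C. For HNRNPK the shallow library 14HP26 reached 935 CPM, close to the 914 CPM of the deep library 13EP8, and the log2 fold change was -0.25 (SE 1.84). HNRNPC, which binds uridine tracts, had 198, 720, 39, 0 and 54 counts in Cohort B and 2012, 6, 0, 2451 and 0 in Cohort C, with a log2 fold change of 0.18 (SE 1.91). None of these 4 genes separated the cohorts, and each was at 0 in 14HP31 or close to it.

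HNRNPD had 644, 755, 10, 0 and 33 counts in Cohort B and 2061, 0, 2, 2918 and 0 in Cohort C, with a log2 fold change of -0.015 (SE 1.89). HNRNPDL, its close relative, had 1043, 940, 0, 0 and 374 counts in Cohort B and 3730, 12, 84, 4598 and 10 in Cohort C, with a log2 fold change of 0.21 (SE 1.85). HNRNPM had 294, 387, 6, 0 and 217 counts in Cohort B and 2353, 13, 44, 2515 and 0 in Cohort C. The values of HNRNPM in Cohort C ranged from 0 to 734 CPM and contained the whole range of Cohort B, 0 to 480 CPM, and its log2 fold change was 0.66 (SE 1.90). HNRNPR had 378, 760, 8, 0 and 12 counts in Cohort B and 1199, 0, 122, 1967 and 0 in Cohort C, with a log2 fold change of 0.58 (SE 1.91). HNRNPL, the CD45 exon silencer named above, had 103, 175, 6, 0 and 20 counts in Cohort B and 737, 0, 16, 880 and 0 in Cohort C, with a log2 fold change of 0.71 (SE 2.0). HNRNPLL, which acts on the same exons, was seen in 6 libraries, and had 103, 67, 0, 0 and 22 counts in Cohort B and 467, 0, 2, 328 and 0 in Cohort C. Its log2 fold change was 0.22 (SE 2.04).

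**Figure D4:**
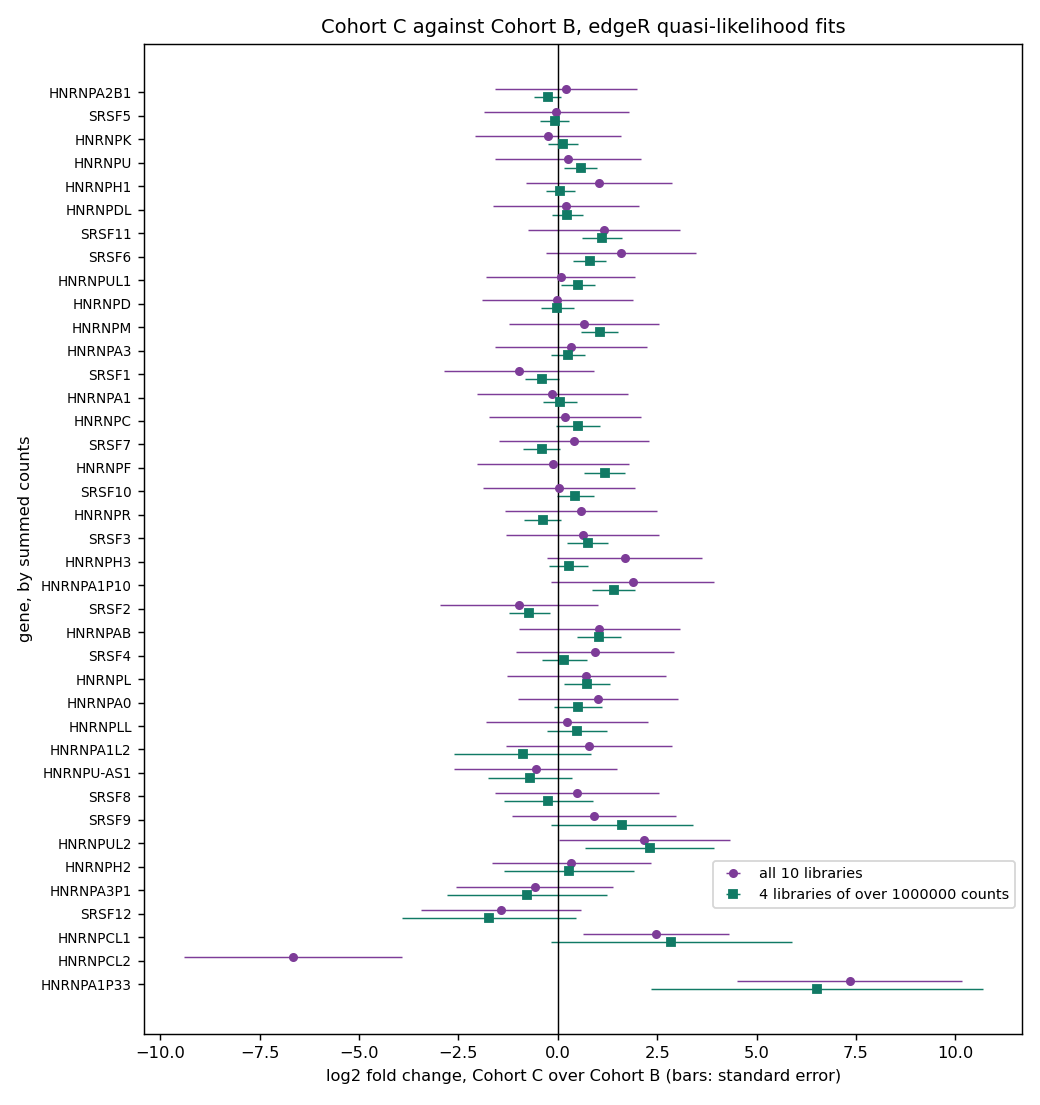
Log2 fold change of Cohort C over Cohort B with its standard error for each of the 39 genes tested, from the edgeR fit of all 10 libraries (purple circles) and of the 4 deep libraries (green squares). In the fit of 10 libraries the standard errors have a median of 1.91 and most bars cross 0, and in the fit of 4 libraries they have a median of 0.51.

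With only the 4 libraries of over 1000000 counts, a comparison chosen after the totals had been seen, the spread was much smaller. The common dispersion of the edgeR fit, a measure of the variation between libraries of a cohort, was 1.04 against 4.74 with all 10. In the comparisons of these 4 libraries, CPM were scaled by TMM over the 4 alone and differ from the CPM given above. None of the 38 genes then tested passed the unadjusted p under 0.01 with 1.5-fold, against 0.881% of all 13274 genes. At an unadjusted p under 0.05, 3 of 38 passed against 5.26% of all genes. These were HNRNPF, HNRNPM and HNRNPA1P10, each at an edgeR adjusted p of 0.800. HNRNPF had 284 and 132 CPM in Cohort B and 517 and 422 CPM in Cohort C, with a log2 fold change of 1.18 (SE 0.51). HNRNPM, which often promotes exon skipping, had 245 and 290 CPM in Cohort B and 671 and 434 CPM in Cohort C, with a log2 fold change of 1.05 (SE 0.45). In both genes the Cohort C monkeys were above both Cohort B monkeys, and the deeper libraries were those of Cohort C. The median log2 fold change was 0.28 for the 38 genes and 0.32 for all genes.

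Both Cohort C libraries were above both Cohort B libraries for 13 of the 38 genes, against 29.4% of all genes, and below both for 2, against 9.33%. The 2 were HNRNPA2B1, with 2135 and 2205 CPM in Cohort B and 1732 and 1902 CPM in Cohort C, and SRSF2, with 191 and 344 CPM in Cohort B and 187 and 138 CPM in Cohort C. With library size as the only scaling, 13 were above, against 30.1% of all genes, and 1, HNRNPA2B1, was below, against 8.99%. HNRNPU was then no longer among those above, and HNRNPH1 was. Among those above were SRSF6, with 350 and 491 CPM in Cohort B and 834 and 627 CPM in Cohort C, and SRSF11, with 211 and 549 CPM in Cohort B and 954 and 675 CPM in Cohort C. SRSF3 had 138 and 281 CPM in Cohort B and 322 and 383 CPM in Cohort C. For each of these 3 the log2 fold change, 0.80 (SE 0.42), 1.10 (SE 0.50) and 0.75 (SE 0.51), had an edgeR adjusted p of 0.800.

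**Figure D5:**
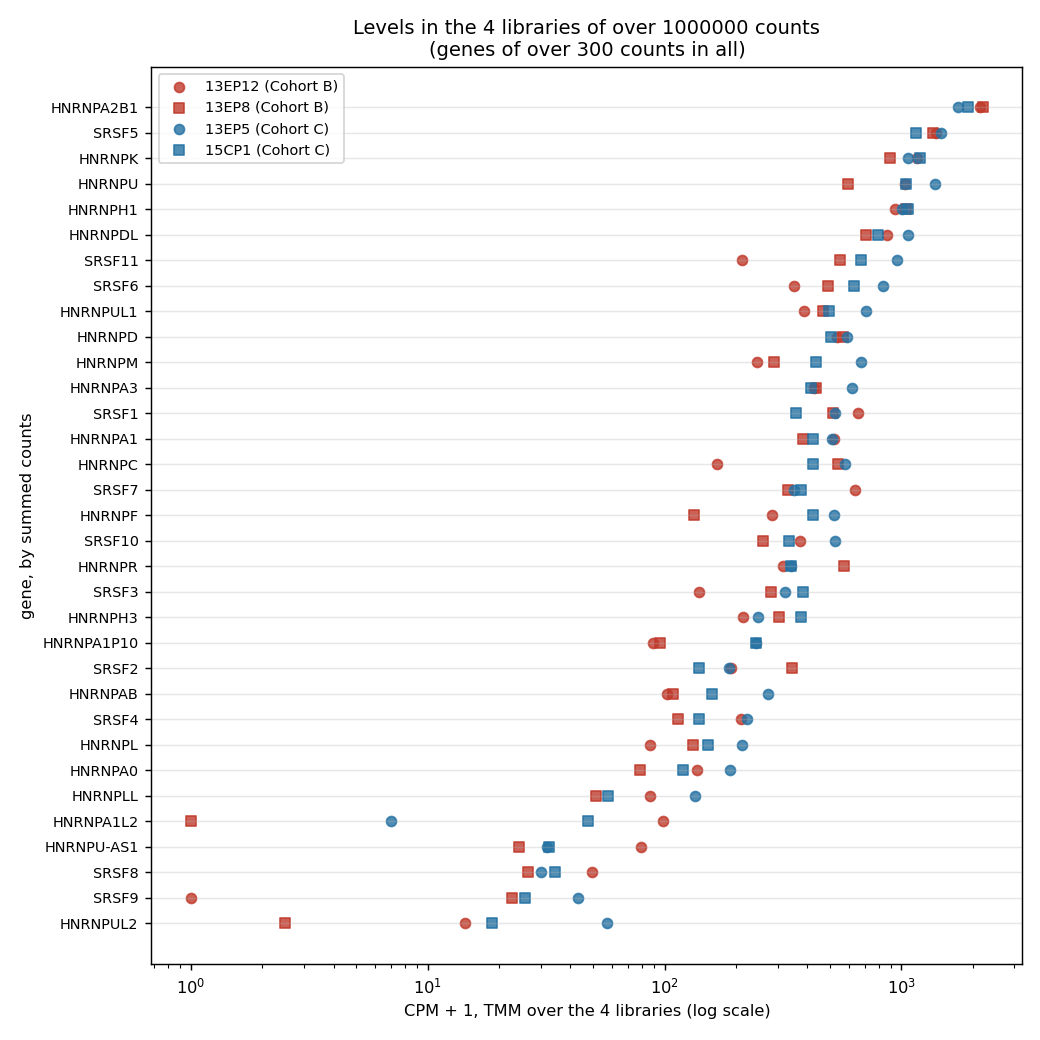
CPM + 1 (log scale, TMM over the 4 libraries) of the SR and hnRNP genes with over 300 counts in all, in the 4 deep libraries, with Cohort B in red and Cohort C in blue. HNRNPA2B1, SRSF5, HNRNPH1 and HNRNPD lie within 1.27-fold across the 4 monkeys, while SRSF11 and HNRNPF spread over 4.53-fold and 3.92-fold.

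Several of the abundant factors hardly varied between these 4 monkeys. The ratio of the highest to the lowest CPM was 1.13 for HNRNPH1, 1.17 for HNRNPD, 1.27 for HNRNPA2B1 and SRSF5 and 1.34 for HNRNPK. It was 4.53 for SRSF11, 3.92 for HNRNPF, 3.48 for HNRNPC and 37.3 for the low HNRNPUL2. HNRNPC had 165 CPM in 13EP12 against 423 to 574 in the other 3 libraries, so 1 Cohort B monkey set its ratio. The median ratio was 2.17 over the 32 SR and hnRNP genes with a count in all 4 libraries and 3.49 over all such genes. Among genes with a mean of at least 100 CPM the medians were 1.97 for 27 SR and hnRNP genes and 2.16 for all 1987.

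The only gene past the study's filter, HNRNPA1P33, is by its symbol a pseudogene of HNRNPA1, with 36 counts in all. It had 22 counts in 13EP5, 6 in 14HP33 and 8 in 15CP1, and none in any Cohort B library or in 14HP24 and 15CP4. The fitted log2 fold change was 7.35 (SE 2.83, edgeR unadjusted p = 0.0094, adjusted p = 0.141). Summed over libraries, its level in Cohort C was 3.64-fold a floor of 3 counts over the whole of Cohort B. That pooled ratio is no bound for single monkeys, since 22 of the 36 counts were in 13EP5. Over 22 other settings the unadjusted p of HNRNPA1P33 ran from 0.0075 to 0.167, and without 14HP33 its log2 fold change was 4.75. In 14HP33 its 6 counts became 85.5 CPM, because the TMM factor of that library was 0.0725. HNRNPCL2, an HNRNPC-like gene copy with 42 of its 43 counts in Cohort B monkey 15CP6, had a log2 fold change of -6.66 (SE 2.74, edgeR unadjusted p = 0.015, adjusted p = 0.141), and passed the filter with library size as the only scaling. HNRNPA3P1, HNRNPCL1 and HNRNPA1L2 were seen in 3 or 4 libraries.

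Reads of a pseudogene and its parent may have been split or shared in counting, so the levels of HNRNPA1 and its copies are uncertain. The copy HNRNPA1P10 had 106 counts in 13EP12 and 126 in 13EP8, both of Cohort B, and 845 in 13EP5 and 1400 in 15CP1, both of Cohort C. Per count of HNRNPA1 this was 0.170 and 0.247 in Cohort B and 0.472 and 0.571 in Cohort C. Both Cohort C ratios lay above both Cohort B ratios. HNRNPA1 itself had 518 and 382 CPM in Cohort B and 510 and 423 CPM in Cohort C, with TMM over the 4 libraries. In the fit of the 4 libraries HNRNPA1P10 had a log2 fold change of 1.4 (SE 0.53, edgeR unadjusted p = 0.023, adjusted p = 0.800), and HNRNPA1 had 0.05 (SE 0.43). The ratio was singled out after its values had been seen. HNRNPU-AS1, antisense to HNRNPU, took 7.01 and 3.75% of the counts on the pair in Cohort B and 2.18 and 2.91% in Cohort C. Whether the counting used the strand of the reads is not given in the sources used here, so reads of this pair cannot be told apart.

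Other parts of the splicing machinery were read from the same fit of 10 libraries. Of 69 further splicing genes, 66 were tested, 43 with a fold change above 0 and 23 below it, beside 53.5% above 0 over all genes. None passed the filter, which 6.43% of all genes passed, and 1 had an unadjusted p under 0.05 in edgeR, beside 20.6% of all genes. Their median log2 fold change was 0.56. Of the spliceosome core, 22 of 31 genes were above 0 and 9 below it. SF3B1, which contacts the branch point, had a log2 fold change of 0.08 (SE 1.85), and SF1, which binds the branch point first, had 0.90 (SE 1.89). Of the kinases and importins that act on SR proteins, 3 of 8 were above 0. CLK1, a kinase of the SR tail, had 965, 950, 73, 0 and 192 counts in Cohort B and 2899, 0, 6, 5264 and 0 in Cohort C, and a log2 fold change of -0.25 (SE 1.86). Of the SR-related proteins 8 of 9 were above 0, and SRRM2, a large nuclear speckle protein, had 2925, 2580, 33, 0 and 767 counts in Cohort B and 10876, 49, 306, 13955 and 278 in Cohort C with a log2 fold change of 0.71 (SE 1.75). Of the hnRNP proteins under other symbols 10 of 18 were above 0, with PCBP2 at 0.74 (SE 1.88) and RBMX at -0.14 (SE 1.91). In the edgeR fit of the 4 deep libraries, 0 of these 66 genes passed the filter, beside 0.881% of all genes, and 3 had an unadjusted p under 0.05, beside 5.26%. The kinases and importins changed direction there, with 6 of 8 above 0 and CLK1 at 0.20 (SE 0.38). Above 0 were also 19 of 31 core genes, 8 of 9 SR-related and 11 of 18 hnRNP genes under other symbols. Over all genes it was 59.5%.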

How the data were processed

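Tr1 cell RNA of 10 monkeys (5 per cohort, by the sample labels) was sequenced as stranded paired-end libraries. The authors aligned the macaque reads by HISAT2 2.0.2 to a human build, hg38, and deposited raw counts per gene, with the options on strand and multiple matches not given in the sources used here, and the authors also deposited FPKM values from Cuffdiff 2.2.1. Reads that differ from the human gene may be lost. Counts were tested with edgeR 4.0.16 (R 4.3.3; TMM, quasi-likelihood test, at least 10 counts per gene over the libraries) and log2(FPKM + 1) with limma 3.58.1 (mean FPKM of at least 1). DESeq2 1.42.0, edgeR's exact test and an exact two-sided permutation test (252 assignments, log2(CPM + 1)) were alternatives, with other scalings, filters and covariates and each library left out. The fits were tested on simulated data. There, at the spread of these 10 libraries, the fit missed even large changes at an adjusted p under 0.05, so the absence of such calls does not show equal levels. P-values measure the spread between libraries, 1 per monkey, in which differences between animals and in library quality cannot be told apart. Floors (3 counts) and Wilson intervals (scipy 1.17.1) cover counting error only.

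Values in every library are given for the 14 tested SR and hnRNP genes with the most counts, those past the filter, and those seen in 7 or more libraries, and of other splicing lists up to 2 genes with the most counts. HNRNPLL falls outside this rule and was added beside HNRNPL. The genes and lists were chosen with earlier results of these data known. No coordinates are given, since the gene table at hand is of another assembly than hg38.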

Additional observations from a re-analysis of the deposited data

Results flagged for a closer look

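For the genes given with values in every library, and in each cohort, the highest and lowest log2(CPM + 1) were compared with the rest of the 5 monkeys by Dixon's gap test. Of 52 sets of 5 examined, 9 held a monkey whose gap exceeded 0.71 of the range, and chance flags about 1 in 20. All 9 were low values in shallow libraries. In Cohort B monkey 14HP31, of 6076 counts, HNRNPK, HNRNPU, HNRNPC and HNRNPL were at 0, with gaps of 0.734, 0.792, 0.759 and 0.732 of the range. HNRNPF was at 0 in Cohort B monkey 14HP26 (gap 0.796). In Cohort C monkey 14HP33, whose counts were mostly MTRNR2L, HNRNPH1 was at 7.65 on the log2 scale against at least 10.1 in the others (gap 0.870), and SRSF6 was at 0 (gap 0.798). In Cohort C monkey 15CP4, HNRNPM and HNRNPA0 were at 0 (gaps 0.792 and 0.837).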

How the results depend on the processing

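SR and hnRNP genes past the filter numbered 1 with library size only (then HNRNPCL2) and without MTRNR2L genes. They numbered 0 with DESeq2, edgeR's exact test, DESeq2 size factors, filterByExpr, every gene with at least 1 count, the replicate block, the index suffix as covariate, exact permutation, libraries under 100000 counts left out, and the 4 deep libraries under either scaling (added after seeing the totals), and 0 to 1 with 1 library left out. No gene had an adjusted p under 0.05 among the 39 under any of these, and no other splicing gene passed the filter. Limma on FPKM called 0 with a pseudocount of 0.1, no filter or the 4 deep libraries.

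Fold changes of 23 genes were recomputed. In every refit, the permutation scale below left out, the sign stayed for HNRNPH1, SRSF11, SRSF6, HNRNPM, SRSF3, HNRNPH3 and HNRNPA0 (higher in Cohort C) and SRSF1 (lower). HNRNPA1P33, without a count in Cohort B, could not reverse, and filterByExpr left it out. Over the 12 other settings 37 of 275 log2 fold changes reversed, and with 1 library left out 51 of 230 did. The cause was not tested. With DESeq2 SRSF5 was 0.13, HNRNPK 0.15, HNRNPD 0.17, HNRNPA1 0.053 and HNRNPF 0.14, and with its size factors in edgeR 0.12, 0.15, 0.17, 0.052 and 0.14. With filterByExpr HNRNPU was -0.10, HNRNPUL1 -0.46, HNRNPC -0.33 and SRSF10 -0.35. With library size only HNRNPUL1 was -0.019, HNRNPC -0.20 and SRSF10 -0.079. Without libraries under 100000 counts HNRNPUL1 was -0.12 and HNRNPF 0.57, and with the index suffix HNRNPD was 0.11. In the 4 deep libraries HNRNPA2B1 was -0.26, HNRNPK 0.14, HNRNPA1 0.053, HNRNPF 1.18 and HNRNPR -0.37, and with library size only -0.21, 0.18, 0.10, 1.21 and -0.32, with HNRNPD at 0.037.

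Replicate numbers label different monkeys, and same-numbered monkeys did not deviate together (r from -0.431 to 0.375), so they do not pair the libraries. With the replicate block HNRNPA2B1 was -0.16, HNRNPU -0.19, HNRNPUL1 -0.49, HNRNPC -2.43, SRSF10 -0.68 and HNRNPL -0.15, 20 of the 39 genes were above 0 and 19 below it with a median of 0.025, and 0 of 14168 genes passed the filter.

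With 1 library left out the ranges that crossed 0 were -1.03 to 0.33 for HNRNPA1, -0.23 to 0.72 for HNRNPA2B1, -0.62 to 0.79 for HNRNPA3, -0.56 to 1.26 for HNRNPC, -0.87 to 0.50 for HNRNPD, -0.32 to 0.52 for HNRNPDL, -0.78 to 0.25 for HNRNPF, -1.01 to 0.46 for HNRNPK, -0.014 to 1.64 for HNRNPR, -0.30 to 0.72 for HNRNPU, -0.36 to 0.64 for HNRNPUL1, -0.76 to 0.43 for SRSF10 and -0.66 to 0.33 for SRSF5. Those that kept their sign were 0.73 to 1.49 for HNRNPH1, 0.16 to 2.28 for SRSF11, 0.95 to 1.92 for SRSF6, 0.10 to 1.10 for HNRNPM, 0.28 to 1.08 for SRSF3, 0.96 to 2.33 for HNRNPH3, 0.67 to 1.92 for HNRNPA0, 0.19 to 1.39 for HNRNPL, -1.30 to -0.28 for SRSF1 and 4.75 to 7.81 for HNRNPA1P33. Exact permutation used another scale, the difference of the cohort means of log2(CPM + 1). On it, 20 of the 39 genes were higher in Cohort C and 19 lower, with a median of 0.085 against 0.185 over all genes. SRSF3 was then lower in Cohort C, with a mean of 5.21 against 5.73 in Cohort B. The share of counts in 15CP4 was 1.96% without MTRNR2L genes. In the 6 shallow libraries 3 counts equal 3.10 to 494 CPM. In 14HP33 that floor, 3.10 CPM, is close to the 2.52 CPM of 13EP12, and 19 of 31 genes above it in the deep libraries were at 0. The floor is taken on all counts, and MTRNR2L genes held 87.0% of them in 14HP33 against 3.09% in 13EP12.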
